A study of Mus musculus with 36 samples.

Results

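Lipid droplet genes of the CIDE and perilipin families, with 3 genes of droplet lipolysis, were examined in the livers of male mice on 6 diets. The 10 genes were Cidea, Cideb, Cidec, Plin2, Plin3, Plin4, Plin5, G0s2, Pnpla2 and Lipe, found by gene symbol in the platform annotation among 19053 named genes on the array. They are represented by 13 of 45281 probes in all, and 12 of these probes, at least 1 for every gene, were tested. The genes were selected on earlier results of these arrays, namely higher Cidec and Plin4 on the high-fat diet and lower Plin4 with berries. Differences between diets in Cidea, Cidec and Plin4 are therefore given as a description, with no p-value, and support nothing.

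Each diet group held 6 C57BL/6J mice aged 20 weeks (C57BL/6JBomTac in the design text) that had been fed for 13 weeks. A high-fat diet (HF, 45% of energy from fat) was given with 20% by weight of freeze-dried açai, bilberries, blackcurrants or lingonberries, or with no berries. The reference was a low-fat diet (LF, 10% of energy from fat). All mice were otherwise unmodified males, and each of the 36 Illumina MouseWG-6 v2.0 arrays held the liver RNA of 1 mouse.

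A lipid droplet is a core of triglyceride and sterol ester under a single layer of phospholipid, and hepatocytes store surplus fatty acids in it. CIDE proteins sit where droplets touch and help lipid pass from a smaller to a larger droplet, and perilipins coat the surface and govern the access of lipases. In mice, Cidea and Cidec are best known from adipose tissue and from fatty liver, and Cideb is the family member typical of hepatocytes.

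Median raw intensity was 81.2 to 103 per array, and 31.4% to 34.6% of probes were detected (detection p below 0.05). The number of arrays limits the precision. Each of 6 beadchips carried all 6 diets, and a diet kept its place on every chip, so that place on the chip and diet cannot be told apart. All 6 hepatocyte markers were detected on all 36 arrays. Pancreatic acinar markers (9 of 10 on the array) had means of 7.91 to 9.86 in 6 livers (lingonberry replicate 2, açai replicates 4 and 6, bilberry replicate 2, blackcurrant replicate 3 and LF replicate 6), against medians of 5.91 to 6.09 per diet. In bulk liver, fewer cells of a type and less RNA per cell cannot be told apart.

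Levels below are background-corrected, normalized log2 intensities. A difference is that of 2 diet means on this scale, printed ± its standard error from a fit over all 36 arrays. A call is an adjusted p below 0.05 over all 17907 probes tested, and a member is counted by its brightest probe. Levels of different probes are not set against each other.

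Promoters of Cidec and Plin4, 2 of the diet-variable members, are shown beside that of Plin5, and that of Cidea is not shown. Plin5 is the chromosomal neighbour of Plin4, and its level was called in no comparison of diets. Each sequence runs from 250 bases before to 50 after a RefSeq gene start. Capitals mark AGGTCA, a core letter run of the sites of many nuclear receptors, PPARs included, and GGGCGG, the core of an Sp1 site, on either strand.
Cidec, first start, GRCm38.p6 chr6:113435711-113436010, minus strand: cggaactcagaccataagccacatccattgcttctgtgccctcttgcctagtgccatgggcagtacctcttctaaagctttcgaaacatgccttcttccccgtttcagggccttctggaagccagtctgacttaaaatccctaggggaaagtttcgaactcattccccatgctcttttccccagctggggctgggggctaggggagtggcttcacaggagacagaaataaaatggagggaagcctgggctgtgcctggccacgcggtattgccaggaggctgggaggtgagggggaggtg
Cidec, second start, GRCm38.p6 chr6:113434715-113435014, minus strand: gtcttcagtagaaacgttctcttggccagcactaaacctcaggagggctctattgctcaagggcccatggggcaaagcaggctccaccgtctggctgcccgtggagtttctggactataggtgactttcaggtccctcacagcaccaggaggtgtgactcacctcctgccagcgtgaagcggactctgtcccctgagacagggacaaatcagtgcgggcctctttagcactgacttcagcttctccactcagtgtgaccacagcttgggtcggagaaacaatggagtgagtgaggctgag
Plin4, GRCm38.p6 chr17:56109733-56110032, minus strand: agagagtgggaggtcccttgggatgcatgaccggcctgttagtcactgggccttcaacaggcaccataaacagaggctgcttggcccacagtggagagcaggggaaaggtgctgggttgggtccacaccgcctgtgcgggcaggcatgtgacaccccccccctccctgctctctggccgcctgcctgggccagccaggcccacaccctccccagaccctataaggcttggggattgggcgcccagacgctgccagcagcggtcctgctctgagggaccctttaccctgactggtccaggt
Plin5, first start, GRCm38.p6 chr17:56117499-56117798, minus strand: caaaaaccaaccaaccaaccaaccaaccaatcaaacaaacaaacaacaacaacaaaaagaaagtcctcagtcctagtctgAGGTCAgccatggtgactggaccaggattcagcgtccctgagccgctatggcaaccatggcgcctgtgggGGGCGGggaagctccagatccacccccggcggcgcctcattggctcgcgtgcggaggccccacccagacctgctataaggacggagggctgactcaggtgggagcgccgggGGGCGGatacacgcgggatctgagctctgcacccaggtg

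Neither motif was found in the windows of both Cidec starts and of Plin4. The Plin5 window held AGGTCA 170 bases before the start and GGGCGG at 2 places. Among 12 windows of 9 members (Cidea is not shown), AGGTCA stood in 3, those of Plin2 and of both Plin5 starts, against 16.3% of 32851 RefSeq promoters of the same length. GGGCGG stood in 8 of the 12, against 35.7% of all promoters. Cidec, Plin5 and Lipe have 2 windows each, and those of Plin5 overlap and share 1 GGGCGG site. AGGNCA repeated with 1 base between, read on both strands, was in none of the 12 and in 0.381% of all promoters. TATAAA stood in 1 (Cideb), against 13.6% of all promoters. AGGTCA and GGGCGG overlapped in none of the windows, and a match of letters is a description and not a binding site.

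Among the CIDE genes, Cidea differed between diets from no detection to clear signal. This gene encodes a droplet protein abundant in brown fat. The Cidea probe was detected in 6 of 6 açai livers, 1 bilberry liver, 0 blackcurrant livers, 1 lingonberry liver, 4 HF livers and 0 LF livers, and it passed the filter only through the açai and HF livers.

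The lowest, median and highest Cidea levels were 6.91, 7.96 and 8.77 on açai, 4.20, 4.36 and 5.30 on bilberry and 4.25, 4.47 and 4.61 on blackcurrant. They were 4.21, 4.36 and 5.47 on lingonberry, 5.29 at the median of a range of 4.23 to 7.02 on HF, and 4.21, 4.34 and 4.66 on LF. Every açai liver lay above every liver of the other berry diets and of LF, and 1 HF liver (replicate 2) lay above the lowest açai liver. Among the HF livers, replicates 2 and 3 were high (7.02 and 6.52), and replicates 1 and 6 (4.47 and 4.23) lay within the LF range.

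Cidea was higher on açai than on HF by 2.39 ± 0.32 and on 6 of 6 chips. Against LF, where no liver had detectable signal, it was at least 9.13-fold higher on açai and at least 1.74-fold higher on HF. It was also at least 9.05-fold higher on açai than on blackcurrant. Açai exceeded bilberry by 3.39 ± 0.32 and lingonberry by 3.35 ± 0.32, each on 6 of 6 chips. Against HF, Cidea differed by -1.001 ± 0.32 on bilberry and -0.96 ± 0.32 on lingonberry and was at least 1.73-fold lower on blackcurrant, and none of these was called. The call of Cidea on HF against LF held in 3 of 14 alternative fits. The call on açai against HF held in 13 of 14, and was lost in a fit on only these 2 diets. Since the probe passed the filter through the açai and HF livers, where Cidea is high, these calls are a description and support nothing.

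Cidea is also an adipocyte marker. Of the 8 other adipocyte markers listed, 6 are on the array, and Retn, Plin1, Slc7a10 and Fabp4 were detected in none of the 36 livers. Adipoq was detected in 11 livers (1 açai, 2 bilberry, 1 blackcurrant, 2 lingonberry, 3 HF and 2 LF), at no more than 5.36. Lep was also detected in 11 (1 açai, 3 bilberry, 2 blackcurrant, 1 lingonberry, 2 HF and 2 LF), at no more than 5.17. The mean of the 6 lay at 4.32 to 4.40 in açai livers, against 4.32 to 4.46 in HF livers and 4.35 to 4.52 in LF livers, and was no higher in açai livers. In the 4 açai livers without raised pancreatic markers, Cidea ranged over 7.34 to 8.77. The mean of 5 hepatic stellate cell markers was 6.35 to 6.72 in açai livers, against 6.22 to 6.72 in HF livers and 6.28 to 6.62 in LF livers. Its median was highest on açai (6.52), against 6.33 on HF, 6.41 on LF, 6.35 on bilberry, 6.26 on blackcurrant and 6.25 on lingonberry. The mean of 4 macrophage markers was 7.53 to 8.89 in açai livers, against 7.43 to 8.55 and 7.88 to 8.50 in HF and LF livers. The part of these cells in the result was not tested.

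Cidec, the CIDE gene whose product enlarges the droplets of white adipocytes, was highest on açai in every liver. Its lowest, median and highest levels were 7.88, 8.30 and 9.17 on açai, 4.45, 4.79 and 7.81 on bilberry and 4.73, 5.14 and 5.97 on blackcurrant. They were 4.41, 5.06 and 5.68 on lingonberry, 4.33, 6.997 and 7.67 on HF, and 4.23, 4.46 and 5.99 on LF. No liver of the other 5 diets reached the lowest açai level, whereas the HF and LF ranges overlapped. HF livers fell into 4 between 6.94 and 7.67 and the same replicates 1 and 6 as for Cidea, at 4.33 and 4.84. Bilberry replicate 3 (7.81) lay above every HF liver, and the next bilberry liver was replicate 1 at 6.09.

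Cidec was detected in 6 açai livers, 3 bilberry, 6 blackcurrant, 4 lingonberry, 5 HF livers and 1 LF liver. It was higher on açai than on LF by 3.67 ± 0.47 and on 6 of 6 chips, and higher on HF than on LF by 1.68 ± 0.47 and on 5 of 6 chips. The difference between açai and HF was 1.99 ± 0.47, positive on 6 of 6 chips but not called. It was called without background correction, with a normexp correction and without replicate 3. Against HF the berry diets gave -0.93 ± 0.47 for bilberry, -1.11 ± 0.47 for blackcurrant and -1.37 ± 0.47 for lingonberry, with lower levels on 4 of 6 chips each, and no call. The call on HF against LF held in 7 of 15 alternative fits and was lost without replicate 2, 3, 4 or 5 (differences of 0.79 to 2.25 over the alternatives). Cidec was chosen with its rise on HF known, so this call is a description and supports nothing.

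Cideb, the hepatocyte family member linked in mice to the loading of lipid on VLDL, was detected in all 36 livers and was nearly level. Its levels ran over 10.44 to 10.68 on açai, 10.34 to 10.84 on bilberry, 10.28 to 10.62 on blackcurrant, 10.07 to 10.59 on lingonberry, 10.27 to 10.80 on HF and 10.23 to 10.69 on LF. All diets overlapped. The diet means of Cideb spanned 0.13, which is percentile 5.31 of that span over all tested probes, whose median was 0.28. HF differed from LF by 0.11 ± 0.10 (95% interval -0.09 to 0.31, limma adjusted p = 0.656), and açai differed from HF by -0.02 ± 0.10 (-0.22 to 0.19, adjusted p = 0.995).

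**Figure D1:**
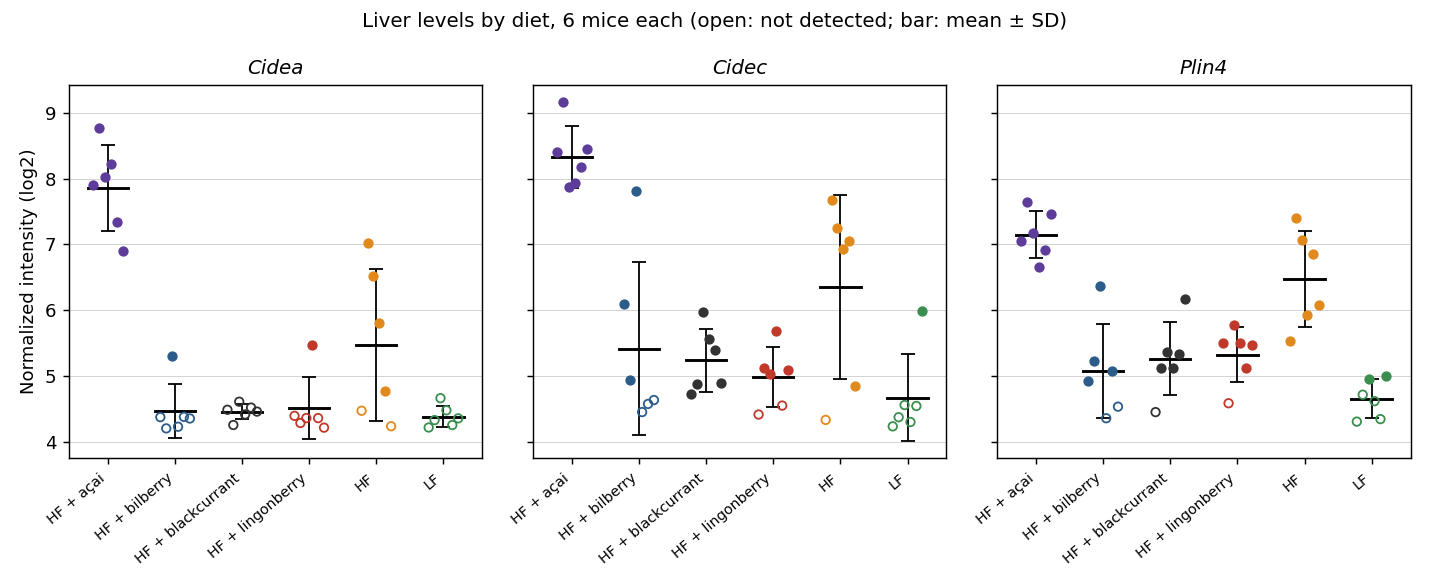
Normalized log2 intensity of Cidea, Cidec and Plin4 in every liver, by diet (x axis), with each diet's mean and SD; open points were not detected. Açai livers lay at 6.91 to 8.77 for Cidea and 7.88 to 9.17 for Cidec, and the HF livers of both genes ran from near the LF level up to 7.02 and 7.67.

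Among the perilipins, Plin4 differed most between diets. This perilipin is known mainly from white fat and muscle and coats small, new droplets. Its lowest, median and highest levels were 6.65, 7.11 and 7.64 on açai, 4.35, 4.999 and 6.37 on bilberry and 4.45, 5.23 and 6.16 on blackcurrant. They were 4.58, 5.48 and 5.78 on lingonberry, 5.54, 6.46 and 7.40 on HF, and 4.30, 4.66 and 4.99 on LF. All HF and all açai livers lay above all LF livers, and the açai and HF ranges overlapped.

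Plin4 was higher on HF than on LF by 1.82 ± 0.29 and on 6 of 6 chips. The smallest difference over 15 alternative fits was 0.77, without background correction. Plin4 was chosen with this rise and its fall with berries known, so its calls are a description and support nothing. Against HF it was called lower on 2 berry diets. The differences were -1.40 ± 0.29 on bilberry and -1.15 ± 0.29 on lingonberry, lower on 6 of 6 chips each. The blackcurrant difference from HF was -1.22 ± 0.29, lower on 5 of 6 chips. It was called only with chip as a block or without replicate 6. Between blackcurrant and lingonberry themselves, Plin4 differed by -0.06 ± 0.29. Plin4 on açai exceeded HF by 0.67 ± 0.29 on 6 of 6 chips, without a call, and exceeded LF by 2.50 ± 0.29. The lingonberry and bilberry calls were lost without replicate 2 or replicate 5, and the bilberry call also without replicate 4. Without the single lingonberry replicate 2, the liver with the highest pancreatic marker mean, the lingonberry call was lost as well.

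Against LF, Plin4 differed by 0.43 ± 0.29 on bilberry, 0.61 ± 0.29 on blackcurrant and 0.67 ± 0.29 on lingonberry. None of these was called, and the ranges overlapped with LF.

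Plin2, the main perilipin coat of hepatocyte droplets, was detected in every liver and called in no comparison. Its levels ran over 9.90 to 11.03 on açai, 10.06 to 10.62 on bilberry, 10.10 to 10.85 on blackcurrant, 10.00 to 10.51 on lingonberry, 9.86 to 10.68 on HF and 9.79 to 11.25 on LF. All diets overlapped, and the LF livers held both the lowest and the highest value of the 36. HF differed from LF by -0.13 ± 0.20 (95% interval -0.54 to 0.28, limma adjusted p = 0.82), and açai from HF by 0.31 ± 0.20 (-0.10 to 0.71, adjusted p = 0.947).

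Plin3, a perilipin found in many tissues that moves between cytosol and droplets, had levels of 7.58 to 8.37 on açai, 7.51 to 8.12 on bilberry and 7.22 to 8.42 on blackcurrant. On lingonberry they were 7.79 to 8.49, on HF 7.66 to 8.44 and on LF 7.62 to 8.34, so that all diets overlapped. Bilberry lay below HF on 6 of 6 chips (-0.33 ± 0.16, 95% interval -0.65 to -0.01), with a limma adjusted p of 0.609. Beadchip took up 73.6% of the Plin3 variation within diets. Arrays of chip 3 averaged -0.42 from their diet means, and those of chip 2 averaged 0.24. With chip as a block the test of any diet difference called Plin3 (limma adjusted p = 0.0432, against 0.475 without the block), while its difference between bilberry and HF had an adjusted p of 0.127.

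Plin5, a perilipin of tissues that burn fat and one that brings droplets to mitochondria, was measured by 2 probes detected on all arrays. By the brighter probe its levels ran over 8.39 to 9.29 on açai, 8.17 to 8.81 on bilberry, 8.31 to 9.90 on blackcurrant, 8.51 to 9.78 on lingonberry, 7.89 to 9.48 on HF and 7.99 to 9.35 on LF. The ranges overlapped, with bilberry the lowest by mean (8.38). Açai exceeded bilberry by 0.64 ± 0.26 (95% interval 0.12 to 1.16, limma adjusted p = 0.337). HF differed from LF by -0.10 ± 0.26 for the brighter probe and by -0.32 ± 0.22 for the dimmer one (limma adjusted p = 0.905 and 0.509).

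Of the lipolysis genes, Pnpla2 encodes ATGL, which takes the first fatty acid from triglyceride. Its levels ran over 9.75 to 10.15 on açai, 9.38 to 10.00 on bilberry, 9.75 to 9.97 on blackcurrant, 9.64 to 9.99 on lingonberry, 9.69 to 9.88 on HF and 9.29 to 9.92 on LF. The diets overlapped, and HF differed from LF by 0.06 ± 0.11 (95% interval -0.15 to 0.28, limma adjusted p = 0.844).

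G0s2 encodes an inhibitor of ATGL. Its levels ran over 9.81 to 10.56 on açai, 8.24 to 11.02 on bilberry, 8.51 to 11.46 on blackcurrant, 8.23 to 10.48 on lingonberry, 8.55 to 10.08 on HF and 7.64 to 11.05 on LF. All diets overlapped. The LF livers spread widest, and the 6 açai livers lay closest together, with an SD of 0.32 against 1.19 on LF. Açai exceeded LF by 0.96 ± 0.46 on 5 of 6 chips (95% interval 0.03 to 1.88, limma adjusted p = 0.239). The diet means of G0s2 spanned 0.96, percentile 97.4 of tested probes, without a call in the test of any diet difference (adjusted p = 0.728).

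Lipe encodes hormone-sensitive lipase, which acts on diglycerides and sterol esters. Its brightest probe was detected in 15 of 36 livers, a second probe in 10 and a further one in 0, and the last was not tested. By the brightest probe, levels ran over 4.35 to 5.07 on açai, 4.32 to 5.06 on bilberry, 4.30 to 4.92 on blackcurrant, 4.35 to 4.84 on lingonberry, 4.47 to 4.75 on HF and 4.56 to 4.99 on LF. These lay at or near background in all diets, where differences could not be measured well. No Lipe probe was called in any comparison.

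**Figure D2:**
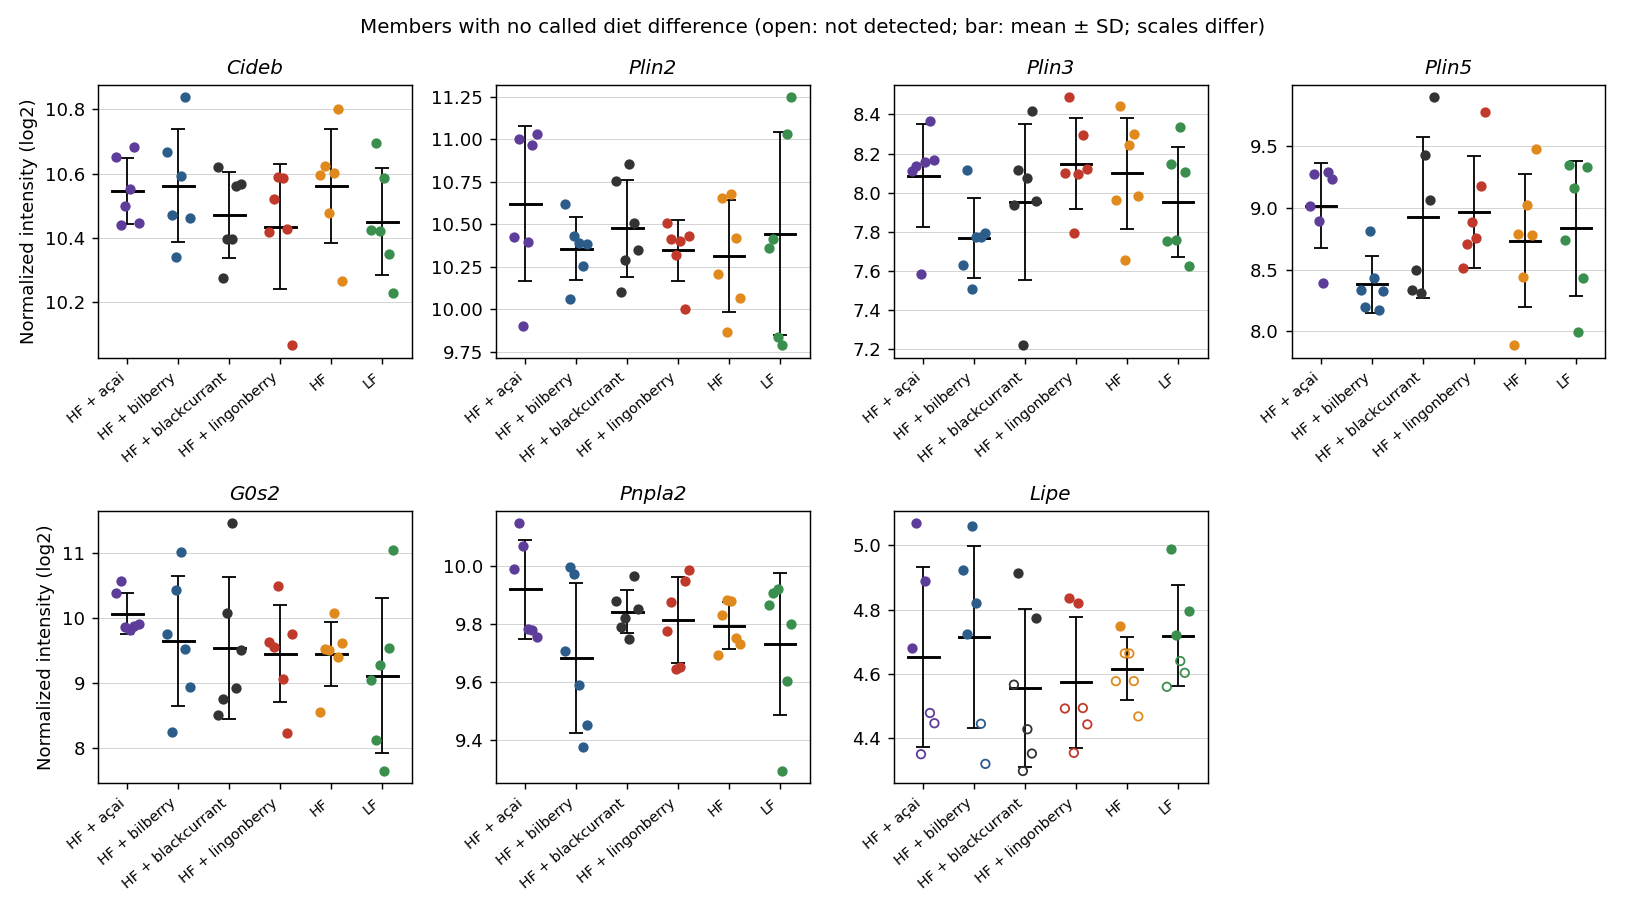
Normalized log2 intensity of the 7 members with no called difference between diets, 6 livers per diet (x axis), with mean and SD and a separate scale for each gene; open points were not detected. Diets overlapped for all 7, and G0s2 varied within diets from 7.64 to 11.05 on LF alone.

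Counts of calls over the 10 members are given beside the share of all tested probes, and nothing is read from them, since Cidea, Cidec and Plin4 were chosen with such differences known. On HF against LF 3 members rose (3.31% of probes were called). Against HF, 1 rose on açai (Cidea, 0.0447%), 1 fell on bilberry (Plin4, 0.38%), 0 were called on blackcurrant (0.134%) and 1 fell on lingonberry (Plin4, 2.25%). Of the 7 members not chosen for a difference between diets, 0 had an unadjusted limma p below 0.05 on blackcurrant against HF, a level that 8.67% of all tested probes reached. On açai against LF 3 members rose (6.47%).

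No member was called against LF on bilberry (1.61%), blackcurrant (2.31%) or lingonberry (3.28%), and of the same 7 members 0 had an unadjusted limma p below 0.05 in each of these comparisons, against 11.7%, 14.7% and 14.4% of probes in that order. All 3 variable members rose on açai against bilberry (0.771%), blackcurrant (1.76%) and lingonberry (3.35%). None was called between bilberry and blackcurrant (0.212%), bilberry and lingonberry (0.246%) or blackcurrant and lingonberry (0.983%), where 1 of the 7 (Plin5, with 9.35% of probes), 2 (Plin3 and Plin5, 8.79%) and 0 (11.5%) had an unadjusted limma p below 0.05. Where members were called, an unadjusted limma p below 0.05 was reached by 3 of the 7 on açai against bilberry (Plin3, Plin5 and Pnpla2). It was reached by 1 on bilberry against HF (Plin3), 1 on açai against LF (G0s2) and 0 in the other such comparisons. The share of all probes at that level is not given for these, so nothing is read from these counts. The test of any difference among the 6 diets called 3 of 10 members (8.03%). With chip as a block it called 4, but the share of all probes called with the block is not given. Nothing is read from that change. The other 7 members had limma adjusted p-values of 0.447 to 0.867 in that test without the block, counting each by its brightest probe.

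The median difference over the 10 members was 0.13 on HF against LF, and 0.30 on açai, -0.22 on bilberry, -0.08 on blackcurrant and -0.02 on lingonberry against HF. Over all tested probes the medians of these 5 comparisons lay between -0.01 and 0.01. The 10 members include Cidea, Cidec and Plin4, chosen with such differences known, so nothing is read from the medians over the members.

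**Figure D3:**
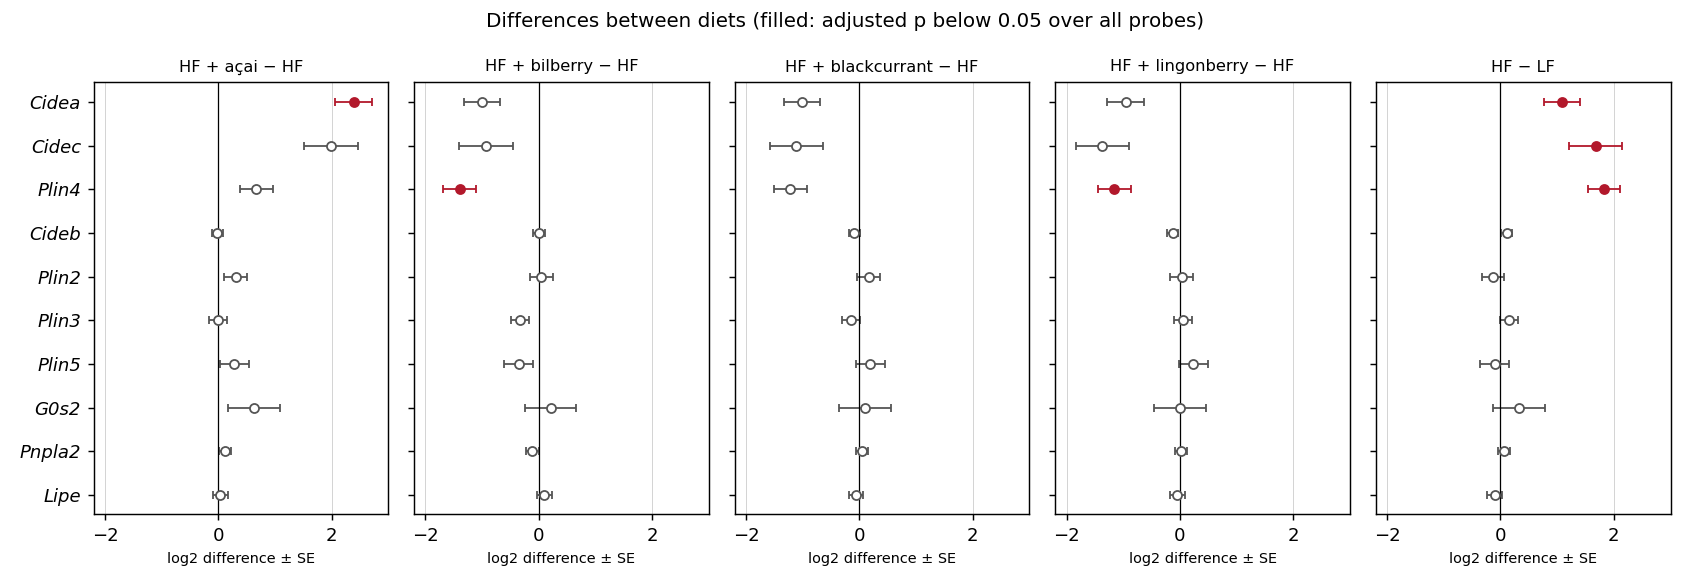
Log2 difference between diets with its standard error (x axis) for the 10 members (rows), each berry diet against HF and HF against LF; filled red points were called. Cidea, Cidec and Plin4 lay above 0 on HF against LF and on açai against HF, and below 0 on the other 3 berries against HF (the Cidea points on HF against LF and blackcurrant against HF rest on a diet with no detected liver), and the other 7 members lay between -0.35 and 0.62.

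Livers of a diet were then compared with each other. With each diet's mean removed, Pearson and Spearman correlations were computed for all 45 pairs of members over 36 livers, with 100000 permutations within diets. By Pearson's r, 4 pairs passed after Benjamini-Hochberg adjustment over the 45.

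Cidec and Plin4 correlated at r = 0.676 (permutation p = 0.00041, adjusted 0.00923) and rho = 0.596 (permutation p = 0.00088, adjusted 0.0396). Their r was positive in 6 of 6 diets, from 0.05 on lingonberry to 0.86 on bilberry (n = 6 each, described without a test). On LF Cidec was detected in 1 and Plin4 in 2 of 6 livers, and on bilberry in 3 and 4. Some of these r therefore rest in part on values near background. With chip means removed as well, r was 0.646 (permutation, adjusted p = 0.0167).

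Cidea and Cidec correlated at r = 0.644 (permutation p = 0.0003, adjusted 0.00923) and rho = 0.491 (permutation p = 0.00737, adjusted 0.0892). HF livers held 60.5% of the variation of Cidea within diets and 40.8% of that of Cidec. With chip means removed r was 0.617 (permutation, adjusted p = 0.0434). Outside açai and HF, Cidea was detected in 2 livers.

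Plin2 and G0s2 correlated at r = 0.494 (permutation p = 0.00426, adjusted 0.0479) and rho = 0.449 (permutation p = 0.0095, adjusted 0.0892), with positive r in 6 of 6 diets. With chip means removed r was 0.712 (permutation, adjusted p = 0.00315). The last pair, Cidea and Lipe, had r = 0.423 and rho = 0.334 (permutation, adjusted p = 0.0228 and 0.19), with Lipe near background, and did not pass with chip means removed (adjusted p = 0.217).

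Without the 2 livers farthest from the median of the first gene, r was 0.511 for Cidec and Plin4, 0.551 for Cidea and Cidec, and 0.412 for Plin2 and G0s2. Those r keep the diet means of all 36 livers. The permutation test took the diet means again without the 2 livers, and its adjusted p-values were 0.131, 0.072 and 0.136 in that order. The pairs did not pass then, so that these relations rest in part on those livers. Without replicate 2 of every diet, 0 pairs passed. Removing chip means brought in Cidec with Plin2 (r = 0.636, adjusted permutation p = 0.00315, against r = 0.368 without removal) and Plin5 with Pnpla2 (r = 0.649, adjusted permutation p = 0.00795, against 0.402).

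**Figure D4:**
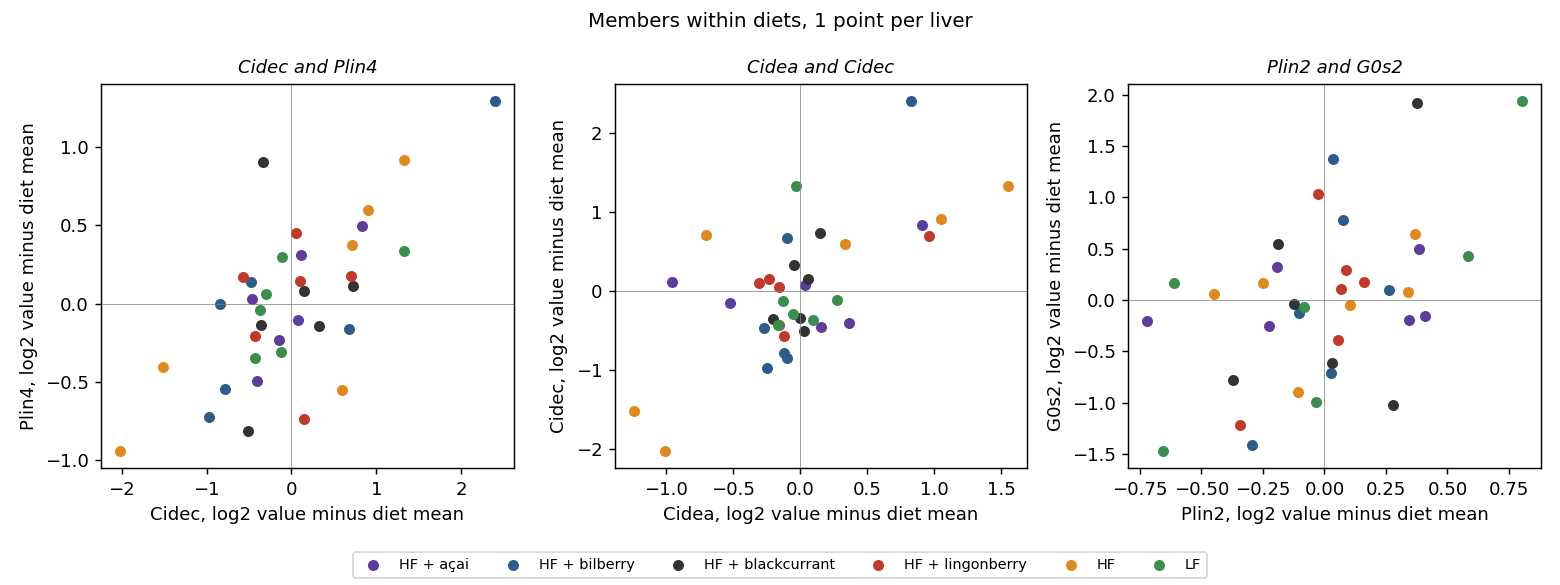
Each liver's log2 value minus its diet mean for Cidec and Plin4, Cidea and Cidec, and Plin2 and G0s2 (1 point per liver, coloured by diet). The HF livers spread most widely for Cidea (60.5% of the variation within diets), and bilberry replicate 3 is the point at the upper right for Cidec and Plin4.

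Over the same diet-centred values, the 3 named genes of 10280 most like each member were found by Pearson's r over the 36 livers. For Cidec these were Apoa4 (0.78), Synpo (0.77) and 2010003K11Rik (0.72). For Plin4 they were Pamr1 (0.73), Tceal8 (0.72) and Aurka (0.69). For Cidea they were Zfp979 (0.69), S100a11 (0.66) and Nudt18 (0.65). The 3 members most variable between diets shared none of these genes, and lists as short as 3 of 10280 cannot show whether the members vary together.

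The gene most like Plin3 was Pgam1 (0.83), most like Plin5 was Cdkn1a (0.78), most like Plin2 was Rtf2 (0.74) and most like Cideb was Pttg1ip (0.74). For G0s2 it was Irak2 (0.73), for Pnpla2 Rab34 (0.72) and for Lipe Edc4 (0.68). 2010003K11Rik was also second for G0s2 (0.72). The livers share chips, which these correlations do not take out.

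Other genes of lipid storage and breakdown were taken from a list of 38, of which 33 are on the array and 30 were tested. On HF against LF 2 rose and 1 fell (3.31% of all probes were called), and the list's median difference was -0.01. Against HF, no gene of the list was called on any berry diet, with medians of 0.12 on açai, 0.01 on bilberry, -0.07 on blackcurrant and 0.00 on lingonberry.

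Pparg encodes the nuclear receptor PPARγ, which drives fat storage genes, Cidea, Cidec and Plin4 among its known targets in mouse adipocytes. Its lowest, median and highest levels were 6.02, 6.75 and 7.22 on HF, against 4.57, 5.23 and 5.42 on LF, with no overlap. HF exceeded LF by 1.65 ± 0.22 (limma adjusted p = 6.78e-06). The Pparg medians on berry diets were 7.52 on açai, 7.52 on bilberry, 6.63 on blackcurrant and 7.06 on lingonberry, all with ranges above LF.

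Fitm1, whose product binds triglyceride in the endoplasmic reticulum where droplets form, had levels of 5.45, 6.34 and 6.85 on HF, against 4.46, 4.74 and 5.63 on LF (lowest, median and highest). HF exceeded LF by 1.35 ± 0.22 (limma adjusted p = 0.000184), and only the lowest HF liver overlapped the LF range. Pnpla3, a lipase relative on droplets, was detected in 0 of 6 HF livers, against 6 of 6 LF livers, and was at least 1.58-fold lower on HF. It passed the filter through the LF livers, with 1 açai liver the only other one detected, so that its call rests on the diet where it is high, and no p-value is given.

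Both Pparg and Fitm1 were also called higher than LF on all 4 berry diets, by 1.44 to 2.47 for Pparg and 0.79 to 1.93 for Fitm1 (limma adjusted p at most 0.0368). Cidea, Cidec and Plin4 were called higher than LF on açai and on none of the other 3 berries. Whether these differences from LF differ between the genes was not tested.

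**Figure D5:**
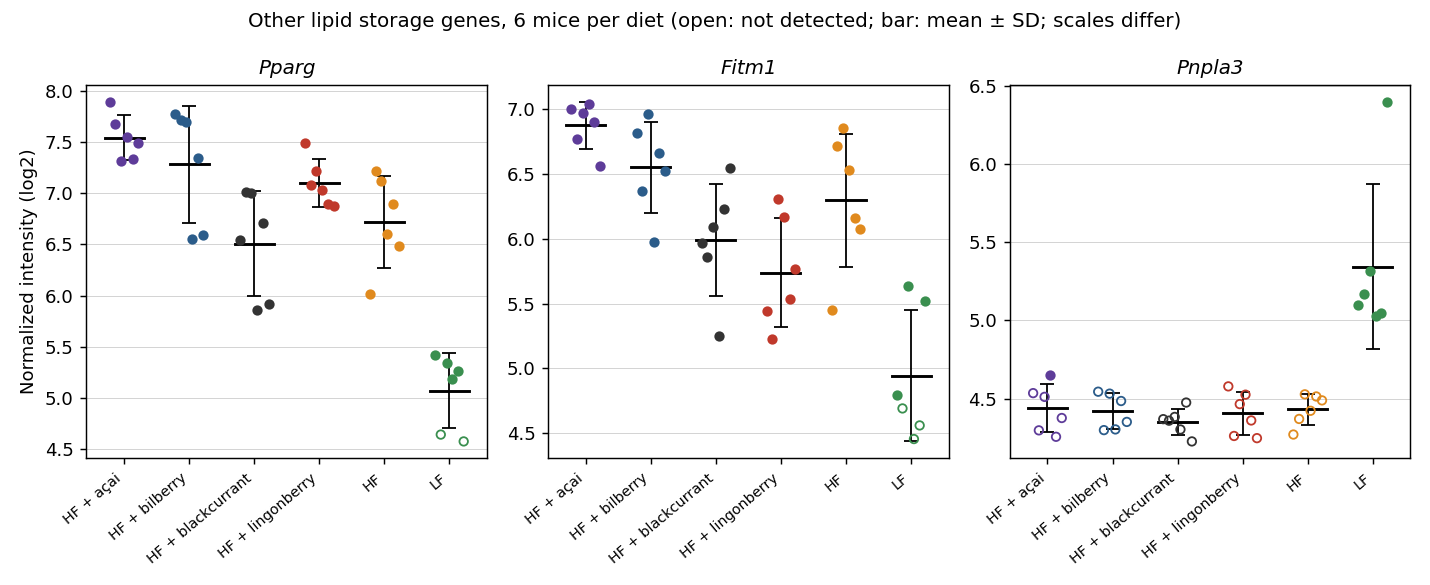
Normalized log2 intensity of Pparg, Fitm1 and Pnpla3 in every liver, by diet (x axis), with mean and SD; open points were not detected and scales differ. Pparg lay above its LF range (4.57 to 5.42) in all livers of the HF and berry diets, and Pnpla3 was detected in 6 of 6 LF livers.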

How the data were processed

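Total RNA from 36 livers was hybridized to beadchips, per the labels. The authors deposited a raw intensity (linear, not background-subtracted by its values) with a detection p-value for every probe, and processed log2 values. How the deposited detection p-value and log2 values were computed is not stated in the labels or headers. The latter differed by at most 0.0501 from neqc values.

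Intensities were corrected and quantile normalized with neqc (limma 3.58.1, R 4.3.3, data.table version 1.17.8; offset 16), leaving out 974 control entries. Probes with a detection p-value below 0.05 on at least 6 of 36 arrays were tested (17907) with lmFit and eBayes, two-sided, a mean per diet, Benjamini-Hochberg adjusted per comparison. The fit was tested on simulated data. Symbols and promoters came from the platform annotation and RefSeq (GRCm38.p6, which is not stated to be the build of the probes). A probe undetected in a whole diet gives a bound ("at least N-fold"), the brighter mean against each array's detection limit or own value. Mice are taken as separate samples, 6 per diet. Python 3.11.15, numpy 2.4.6, scipy 1.17.1, pandas 2.3.3 and matplotlib 3.10.9 served for correlations and figures.

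The labels name the beadchip of each array, which pairs arrays across diets. Deviations from the diet means correlated at 0.14 on average within chips (90 pairs, -0.12 to 0.44) and at -0.03 between chips and diets.

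Genes named are the 10 members, the listed storage genes called on HF against LF or on a berry against HF, and the 3 genes most like each member. The members and lists were chosen with earlier results of these data known. Alternatives covered the chip block, the deposited log2 values, background correction, probe filters, variance options, the diets in the fit and left-out arrays.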

Additional observations from a re-analysis of the deposited data

Results flagged for a closer look

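In 6 of 60 sets of 6 livers (10 members by 6 diets), a single liver stood apart from the other 5 by Dixon's criterion, which chance meets in about 1 of 20 sets. Cidea was at 5.30 in bilberry replicate 3, against 4.20 to 4.38 in the other bilberry livers, and at 5.47 in lingonberry replicate 4, against 4.21 to 4.39. Cidec was at 5.99 in LF replicate 6, against 4.23 to 4.56, and this liver also had raised pancreatic acinar markers (7.91). Cideb was at 10.07 in lingonberry replicate 6, against 10.42 to 10.59. Plin2 was at 10.00 in lingonberry replicate 5, against 10.32 to 10.51. Plin3 was at 7.58 in açai replicate 3, against 8.11 to 8.37, and this array lay on chip 3, the chip with the lowest Plin3 values.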

How the results depend on the processing

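All 18 called differences of members kept their sign in the 15 alternatives, where 235 of 264 values were called again and 29 were not. The 18 all belong to Cidea, Cidec and Plin4, chosen with such differences known. One of the alternatives, the deposited log2 values, differs from the main values by at most 0.0501. The tally is therefore a description and supports nothing. Of 1956 uncalled values 95 changed sign, and 5 became called. All 18 were smallest without background correction (Cidea on açai against HF 1.33 in place of 2.39, Cidec 0.79 in place of 1.68 and Plin4 0.77 in place of 1.82 on HF against LF). The cause was not tested.

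On HF against LF 3 members were called, and 1 (Plin4) without background correction, with all probes tested, with trend and robust variance and with only the diets compared. Between 1 and 3 were called without a replicate. On açai against HF the count was 1, with 2 without background correction or with normexp (offset 50), and 0 with the stricter detection filter, under which Cidea was not tested, or only the diets compared. It was 1 to 2 without a replicate. On bilberry the count of 1 became 0 with all probes tested and with only the diets compared, and on lingonberry 0 with all probes tested and without lingonberry replicate 2. Each was 0 to 1 without a replicate. On blackcurrant the count of 0 became 1 with chip as a replicate block (Plin4) and was 0 to 1 without a replicate. The block changed no other call of a member's difference in these comparisons.

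Of the 45 correlations 4 passed, and 0 without the 2 farthest arrays, 0 to 5 without a replicate. Signal near background limits Cidea, Cidec, Plin4 and Lipe in the diets where they were not detected.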

Other observations

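Outside the rule for named genes, and chosen after their values were seen, 5 further storage genes were called on açai against LF, where 7 of the 30 list genes tested were higher and 1 (Pnpla3) was lower, and 6.47% of all probes were called. Ces1g and Ces1d, which encode carboxylesterases that act on stored lipid, were higher by 0.92 ± 0.28 and 0.80 ± 0.21 (limma adjusted p = 0.043 and 0.0138). Fitm2, the relative of Fitm1, was higher by 0.59 ± 0.14 (0.00708), Mgll, monoglyceride lipase, by 0.45 ± 0.13 (0.032), and Bscl2, which encodes the droplet assembly protein seipin, by 0.30 ± 0.09 (0.0441). Ces1d was also higher on lingonberry than on LF by 0.96 ± 0.21 (limma adjusted p = 0.00429), and it was 0.97 lower on blackcurrant than on lingonberry. On açai against lingonberry 2 of the 30 were higher (3.35% of all probes were called), Fitm1 by 1.13 ± 0.22 and Agpat2, an enzyme of triglyceride synthesis, by 0.59 ± 0.13 (limma adjusted p = 0.00177 and 0.00393). On açai against blackcurrant 3 were higher (1.76%), Pparg by 1.04 ± 0.22, Fitm1 by 0.88 ± 0.22 and Ces1d by 0.80 ± 0.21 (limma adjusted p = 0.00651, 0.0282 and 0.034).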
